A study of Mus musculus with 10 samples.

Results

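The chaperones and folding enzymes of the endoplasmic reticulum (ER), together with the sensors, transcription factors and degradation genes of the unfolded protein response, were compared between QSi5 and CBA mammary glands at lactation day 9. The set held 37 genes. It was made up of every probeset common to the 2 chip types whose platform annotation gave exactly 1 gene symbol, equal to that of a member. This gave 77 probesets out of 22626, with at least 1 for each of the 37 genes. Ero1l was found through its current symbol, Ero1a. A total of 61 probesets, for 36 of the 37 genes, passed the minimum of 20 on the unlogged intensity scale in at least 1 strain, as did 11412 probesets for 7361 genes in the whole series. The remaining gene, Ern1, had 3 probesets below the minimum and was not tested.

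Both strains are inbred. QSi5 mice descend from Quackenbush-Swiss stock and were bred for fecundity, whereas CBA (CBA/CaH) mice were not. There were 5 QSi5 and 5 CBA females, each in her first lactation, mated at the same age and represented by 1 array, with no drug or other treatment named. The paper reports larger litters in QSi5 mice, and describes adjusted litter sizes for the dams whose pups were weighed. Whether litters of the profiled dams were adjusted is not stated, so the number of pups suckled cannot be told apart from strain. The sample records placed 3 mice of each strain on the MOE430 2.0 chip and 2 of each on the MOE430A 2.0 chip, whereas the methods name the MOE430A 2.0 chip alone. The inguinal gland was taken, and the series record adds that weaning was forced at the end of the 9 days. Whether any time passed between weaning and collection is not stated in the sources used here. Whole tissue was used, so fewer cells of a type and less RNA per cell cannot be told apart.

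A lactating alveolar cell makes milk proteins on ribosomes bound to the ER. In the ER lumen, Hsp70 and Hsp90 chaperones, lectin chaperones that read the sugar chains of glycoproteins, and enzymes that form disulfide bonds fold these chains. When unfolded chains accumulate, the transmembrane sensors IRE1 (encoded by Ern1), PERK (Eif2ak3) and ATF6 start the unfolded protein response, in which the transcription factors XBP1, ATF4 and cleaved ATF6 raise the transcription of chaperone and degradation genes. ATF6 with the factor NF-Y binds the ER stress response element (ERSE), a CCAAT box followed after a fixed spacer by CCACG.

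The elements found in the promoters of the members are shown first, as a property of these genes that does not rest on the arrays. RefSeq promoter windows (GRCm38.p6, from 250 bases before to 50 bases after the start site) were given for 32 of the 37 genes. They hold the reference assembly, and the sequences of QSi5 and CBA mice were not examined. The ERSE (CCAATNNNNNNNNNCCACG, read on both strands) was present in 9 of these 32 genes (28.1%), against 0.137% of all 27025 genes with a window. The 10 sites are printed 5′ to 3′ on the strand of the gene, with the CCAAT and CCACG parts in capitals (ATTGG and CGTGG where the element ran in the opposite direction):
Hspa5 (chr2:34772015-34772053, + strand): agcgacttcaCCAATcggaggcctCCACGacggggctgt
Hsp90b1, first site (chr10:86705628-86705666, - strand): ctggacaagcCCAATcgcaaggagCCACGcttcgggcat
Hsp90b1, second site (chr10:86705523-86705561, - strand): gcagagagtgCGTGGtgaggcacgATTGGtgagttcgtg
Calr (chr8:84847065-84847103, - strand): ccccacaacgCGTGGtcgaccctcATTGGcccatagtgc
Canx (chr11:50325790-50325828, - strand): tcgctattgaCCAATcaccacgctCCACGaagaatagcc
Creld2 (chr15:88819510-88819548, + strand): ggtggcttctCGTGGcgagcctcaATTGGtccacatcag
Dnajc3 (chr14:118937817-118937855, + strand): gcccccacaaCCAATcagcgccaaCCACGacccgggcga
Ero1b (chr13:12565672-12565710, + strand): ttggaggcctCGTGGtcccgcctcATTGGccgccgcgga
Pdia6 (chr12:17266481-17266519, + strand): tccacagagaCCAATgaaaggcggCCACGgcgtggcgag
Syvn1 (chr19:6046522-6046560, + strand): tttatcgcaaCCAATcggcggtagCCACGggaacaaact
All 10 sites lay upstream of the start site. The nearest was that of Syvn1, with its last base 26 bases before the start, and the farthest was the first site of Hsp90b1, which began 212 bases before it.

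The 250 bases upstream of Hspa5 (chr2:34771840-34772089, + strand) are shown whole, since this gene had the largest strain difference of the set, with every CCAAT or CCACG and its reverse complement in capitals:
Hspa5 upstream: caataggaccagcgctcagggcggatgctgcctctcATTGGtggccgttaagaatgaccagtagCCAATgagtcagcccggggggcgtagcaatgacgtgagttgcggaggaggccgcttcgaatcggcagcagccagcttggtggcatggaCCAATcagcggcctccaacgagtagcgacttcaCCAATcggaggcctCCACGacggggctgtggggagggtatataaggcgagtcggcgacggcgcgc
The CCAAT pentamer occurred 4 times and CCACG once, and only the CCAAT nearest the start had a CCACG at the spacing of the ERSE. The CCAAT before it had CCAAC at that spacing. Elements were searched as exact letters, so near copies such as this were not counted here or in the other genes. Of other elements of the response, ERSE-II (ATTGGNCCACG) was found in Herpud1 and Dnajb11 (6.25% of the 32 genes, against 0.0444% of all genes). The amino acid response element to which ATF4 binds, searched as TGATGCAA, was found in Herpud1 (3.12%, against 1.03%). The element searched as TGACGTGG, to which XBP1 binds, was found in 0 of the 32, against 0.714% of all genes. For Sil1, Hyou1, Manf, Atf6 and Derl1 no window was used here.

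For most of the set the mean intensity of QSi5 glands lay below that of CBA glands. The difference, QSi5 minus CBA on the log2 scale, was below 0 for 31 of the 36 tested genes and above 0 for 5, where 49.1% of all 7361 genes were below 0. Each gene was taken on its brightest probeset, that with the highest mean over the 10 arrays. The median difference was -0.24 over the members and 0.004 over all genes, and the members ranged between -1.09 (Hspa5) and 0.18 (Os9). These counts and medians describe the list, which was chosen with results of these arrays known.

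With limma and Benjamini-Hochberg (BH) adjustment over all tested probesets, 4 of the 36 genes were called lower in QSi5 mice (Hyou1, Sil1, Ero1b and Trib3) at an adjusted p under 0.05 and 0 were called higher, where 1.39% of all genes were called lower and 1.32% higher. Over probesets, 5 of the 61 were called, all of them lower, against 2.94% of the 11412 in either direction. At an unadjusted p under 0.01, 11 genes passed in the lower direction and 0 in the higher, where 3.31% and 3.02% of all genes passed in these directions. At an unadjusted p under 0.05 the counts were 15 lower and 0 higher, against 8.03% and 6.89% of all genes. The strains did not overlap, with every QSi5 mouse below every CBA mouse, for 5 members, and 0 lay wholly above, where these shares were 2.65% and 2.49% of all genes. The remaining 32 of the 36 genes did not pass the stricter test.

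**Figure D1:**
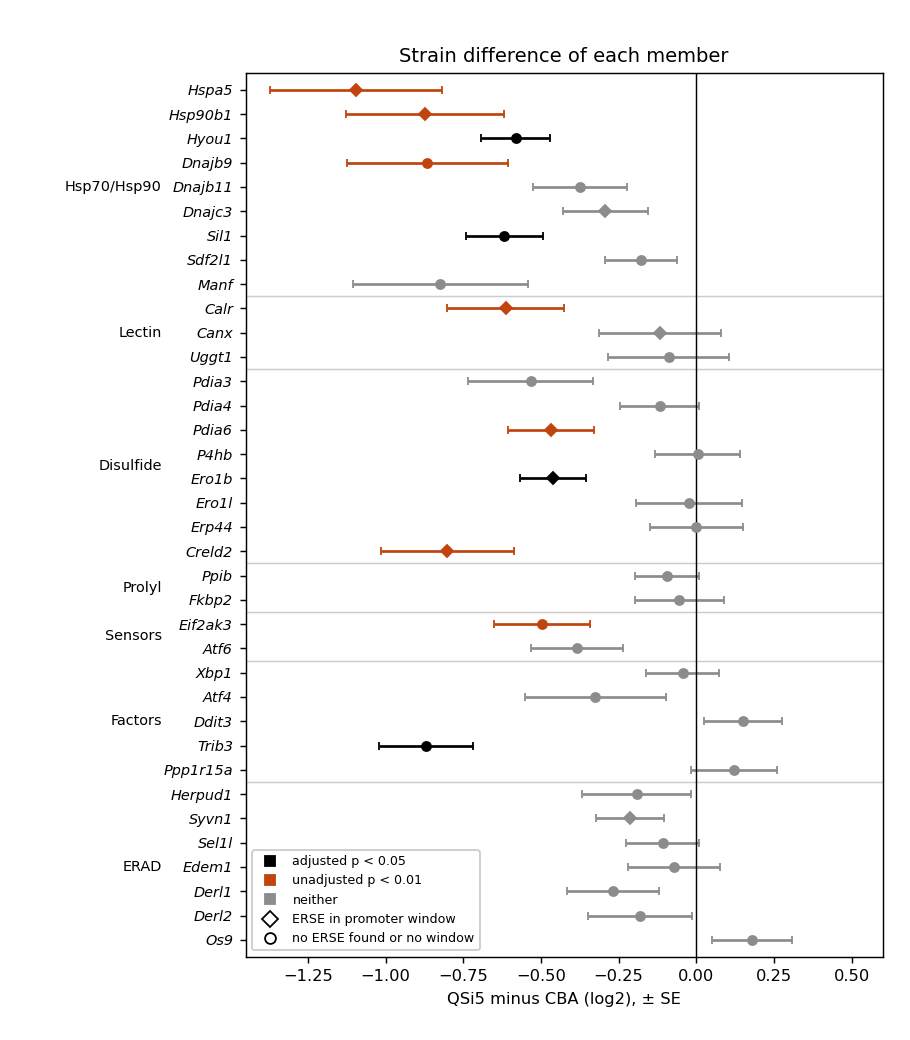
Strain difference of each of the 36 tested members by role, as the log2 value of QSi5 minus that of CBA with the limma SE (n = 5 mice per strain). Black marks the 4 genes at an adjusted p under 0.05, orange the other 7 at an unadjusted p under 0.01, grey the remaining 25, and diamonds the 9 genes with an ERSE, all of which lie left of 0.

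The largest differences were among the Hsp70 and Hsp90 chaperones and their cofactors, where all 9 genes were below 0, with a median of -0.62. Of these, 2 were called lower, 7 were not called, and 5 passed the unadjusted p of 0.01. Hspa5 encodes BiP, the Hsp70 of the ER lumen, which binds exposed hydrophobic stretches and holds the stress sensors inactive. Its log2 intensity was 9.49, 8.30, 8.80, 8.42 and 9.15 in QSi5 mice 1 to 5, against 10.07, 10.15, 10.58, 9.17 and 9.66 in CBA mice 1 to 5. The strains overlapped, since QSi5 mouse 1 lay above CBA mouse 4. The means were 8.83 ± 0.50 and 9.93 ± 0.53 (SD, n = 5 each) in QSi5 and CBA glands, a difference of -1.09 (SE 0.28), so that the QSi5 level was 0.468 of the CBA level. This did not pass the stricter threshold (adjusted p = 0.0590). It passed when chip type entered the fit (0.0416), without QSi5 mouse 1 (0.0358) and without CBA mouse 4 (0.0185), and the alternatives spanned adjusted p values of 0.0185 to 0.449. The second Hspa5 probeset differed by -0.91 (SE 0.25, adjusted p = 0.0898).

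Hsp90b1 encodes GRP94, the Hsp90 of the ER. QSi5 mice 1 to 5 had log2 intensities of 7.72, 7.15, 7.10, 6.70 and 7.51, and CBA mice 1 to 5 had 7.95, 8.37, 8.91, 7.69 and 7.62. CBA mouse 3 was the highest of all and only QSi5 mouse 1 reached into the CBA range. The difference was -0.87 (SE 0.25, adjusted p = 0.107), and -0.37 (SE 0.20, adjusted p = 0.418) on its dimmer probeset. The brighter probeset passed when chip type entered the fit (adjusted p = 0.0302, where the alternatives spanned 0.0302 to 0.435). Without CBA mouse 3 the difference was -0.67 for Hsp90b1 and -0.93 for Hspa5.

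Hyou1 (GRP170), a large Hsp70 relative that exchanges nucleotide on BiP, was called lower. Its intensity was 7.28, 7.07, 7.37, 7.00 and 7.52 in QSi5 mice, against 7.86, 7.82, 7.83, 7.76 and 7.89 in CBA mice. The CBA values lay within a narrow band and all were above the highest QSi5 mouse. The difference was -0.58 (SE 0.11, adjusted p = 0.0133), with means of 7.25 ± 0.21 in QSi5 and 7.83 ± 0.05 in CBA glands (SD, n = 5 each). This probeset has the suffix _s_at, given to probesets that match more than 1 transcript. The other tested probeset of Hyou1 showed 0.02 (SE 0.12, adjusted p = 0.959), and the third was below the intensity minimum, so the call rests on 1 probeset.

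Sil1, the other nucleotide exchange factor of BiP, was also called lower. It had 7.11, 7.18, 7.12, 6.81 and 7.31 in QSi5 mice and 7.49, 7.80, 8.01, 7.66 and 7.66 in CBA mice, without overlap. The difference was -0.62 (SE 0.12, adjusted p = 0.0172). The adjusted p was 0.05003 without QSi5 mouse 3 and 0.0514 without CBA mouse 2, which put Sil1 just outside the threshold in both, where the alternatives spanned 0.0112 to 0.272.

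Dnajb9 (ERdj4), an Hsp40 cochaperone induced by XBP1, had 7.69, 6.56, 6.43, 6.08 and 6.78 in QSi5 mice, against 7.28, 7.23, 7.91, 7.72 and 7.72 in CBA mice. QSi5 mouse 1 was at the level of the CBA mice and the other 4 were below all of them. The difference of -0.87 (SE 0.26) was not called (adjusted p = 0.115), but without QSi5 mouse 1 it was -1.11 and called (adjusted p = 0.00703, where the alternatives spanned 0.00703 to 0.740). Manf, a small secreted protein retained in the ER with BiP, differed by -0.82 (SE 0.28, adjusted p = 0.175), with QSi5 mouse 2 lowest at 6.47. The remaining members of this role were the Hsp40 cochaperones Dnajb11 (-0.37) and Dnajc3 (-0.29) and the Dnajb11 partner Sdf2l1 (-0.18), with adjusted p values between 0.263 and 0.522. The 4 tested probesets of Dnajc3 were all below 0, between -0.46 and -0.29.

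**Figure D2:**
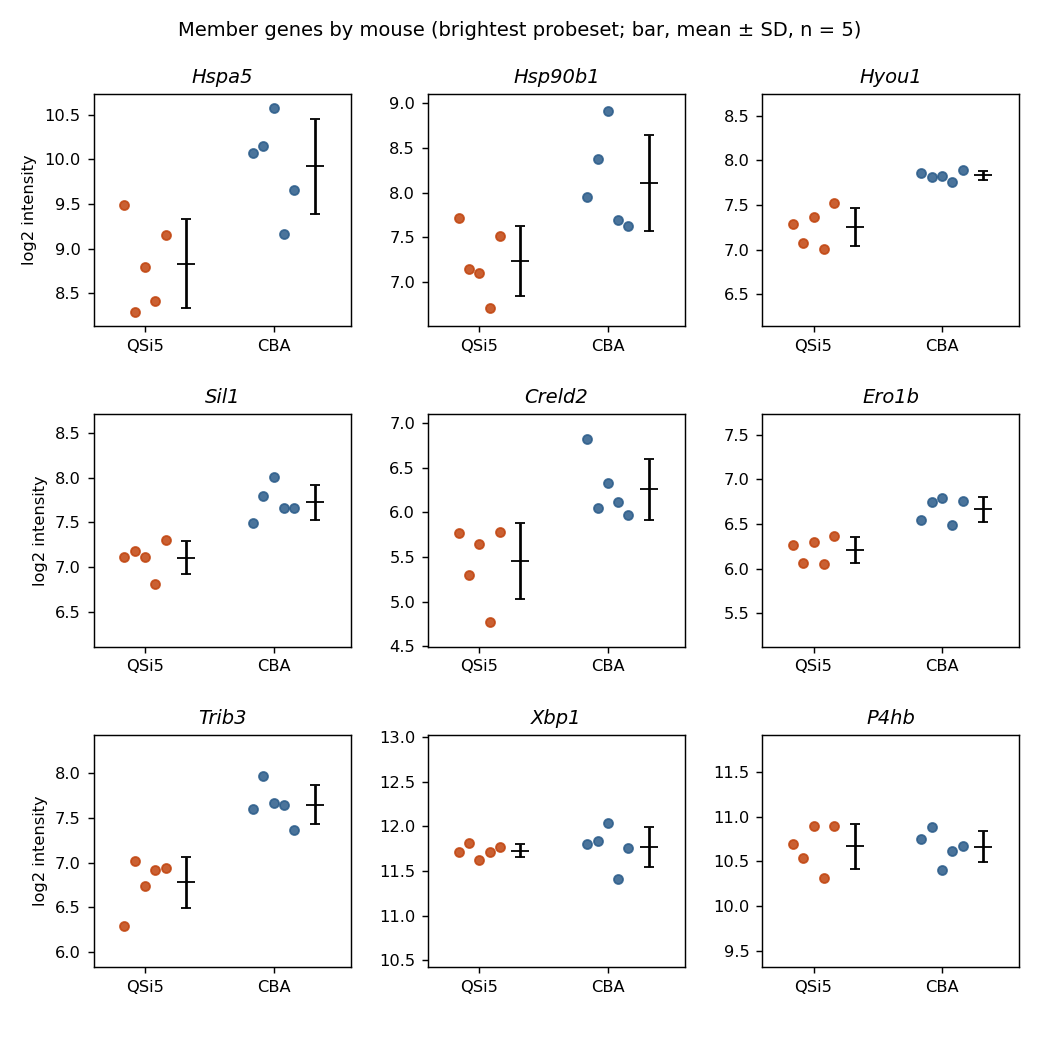
Log2 intensity (vertical axis, each panel to its own range) of 9 members in every mouse, QSi5 left and CBA right, with points in the order of replicates 1 to 5 and bars for the mean ± SD (n = 5). Hyou1, Sil1, Ero1b, Creld2 and Trib3 do not overlap between the strains, Hspa5 and Hsp90b1 overlap in part, and Xbp1 and P4hb overlap throughout.

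In the lectin chaperones, which retain glycoproteins until they are folded, calreticulin had the largest difference. Calr had 10.18, 9.64, 10.19, 9.65 and 10.37 in QSi5 mice, against 10.36, 10.64, 11.09, 10.26 and 10.75 in CBA mice. The strains met only at their edges, where QSi5 mouse 5 was above CBA mice 1 and 4. The difference was -0.61 (SE 0.19, adjusted p = 0.1304), and the other probesets showed -0.40 and -0.38. Calnexin (Canx), the membrane-bound counterpart of calreticulin, showed -0.12 (SE 0.20, adjusted p = 0.839), and Uggt1, which marks unfolded glycoproteins for another round of lectin binding, showed -0.09 (SE 0.19, adjusted p = 0.880). For both, CBA mouse 3 stood above the other 4 CBA mice (8.37 against 7.45 to 7.69 for Canx, and 6.67 against 5.99 to 6.11 for Uggt1). All 3 genes of the role were below 0 and none was called. Calr passed the unadjusted p of 0.01, and neither of the others passed 0.05.

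The 8 genes of disulfide formation were divided, and 6 were below 0, 1 was called lower and 7 were not called (median -0.29). Ero1b, an oxidase that passes electrons from protein disulfide isomerase to oxygen, had 6.26, 6.06, 6.29, 6.05 and 6.36 in QSi5 mice and 6.54, 6.75, 6.79, 6.49 and 6.76 in CBA mice. No QSi5 mouse reached the lowest CBA mouse. The difference was -0.46 (SE 0.11, adjusted p = 0.0380), and -0.39 (adjusted p = 0.2595) on its dimmer probeset. This call was near the threshold: it was lost when any single mouse other than CBA mouse 4 was left out, with adjusted p values of 0.0524 (without CBA mouse 1) to 0.0976 (without CBA mouse 2). Over all alternatives the adjusted p of Ero1b was 0.0311 to 0.455. The related oxidase Ero1l showed -0.02 (SE 0.17, adjusted p = 0.967).

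Creld2, a stress-induced protein with disulfide isomerase activity, had 5.77, 5.30, 5.64, 4.78 and 5.78 in QSi5 mice, against 6.82, 6.05, 6.33, 6.11 and 5.96 in CBA mice. The strains did not overlap, yet the spread within each was wide, and the difference of -0.80 (SE 0.21) was not called (adjusted p = 0.0747). Pdia6, the isomerase also known as P5, had 7.02, 6.63, 6.96, 6.75 and 7.23 in QSi5 mice and 7.41, 7.11, 7.69, 7.33 and 7.40 in CBA mice. Only QSi5 mouse 5 was above a CBA mouse, and the difference was -0.47 (SE 0.14, adjusted p = 0.113). Pdia3, which folds glycoproteins together with calnexin and calreticulin, showed -0.53 (SE 0.20, adjusted p = 0.232) and Pdia4 -0.12 (SE 0.13, adjusted p = 0.724).

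P4hb, the main protein disulfide isomerase, was among the 5 members with the brightest probesets, and its strain means were alike. It had 10.70, 10.54, 10.90, 10.31 and 10.90 in QSi5 mice, against 10.75, 10.88, 10.40, 10.62 and 10.67 in CBA mice. The means were 10.67 ± 0.25 and 10.66 ± 0.18 (SD, n = 5 each) in QSi5 and CBA glands, a difference of 0.00 (SE 0.14, adjusted p = 0.992). Erp44, which retains the Ero1 oxidases in the ER, likewise showed 0.00 (SE 0.15, adjusted p = 0.999). The prolyl isomerases, which turn proline bonds during folding, were also near 0. Ppib (cyclophilin B) had 9.52, 9.27, 9.44, 9.13 and 9.55 in QSi5 mice and 9.39, 9.51, 9.47, 9.49 and 9.49 in CBA mice, a difference of -0.09 (SE 0.10, adjusted p = 0.730), with 0.06 on its other probeset. Fkbp2 showed -0.05 (SE 0.14, adjusted p = 0.903). Neither was called, nor did either pass an unadjusted p of 0.05.

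Of the stress sensors, Eif2ak3 (PERK), the kinase that slows translation by phosphorylating eIF2 alpha, had 4.92, 4.45, 4.78, 4.47 and 5.18 in QSi5 mice, against 5.45, 5.05, 5.39, 5.35 and 5.05 in CBA mice. QSi5 mouse 5 alone overlapped the CBA mice. The difference was -0.50 (SE 0.15, adjusted p = 0.133) on the only 1 of its 3 probesets above the minimum. Atf6 showed -0.38 (SE 0.15, adjusted p = 0.235), and CBA mouse 1 stood apart at 6.44, with the other CBA mice between 5.89 and 6.02. Neither was called, and both passed an unadjusted p of 0.05. The Ern1 probesets lay between 2.56 and 4.10 in QSi5 mice and between 2.35 and 3.78 in CBA mice, against a minimum of 4.32 on the log2 scale, so that no comparison was made for IRE1.

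The transcription factors and feedback genes were divided. Trib3, a pseudokinase that is induced by ATF4 and CHOP and restrains AKT, was called lower on both of its probesets. On the brighter it had 6.29, 7.01, 6.73, 6.91 and 6.94 in QSi5 mice, against 7.60, 7.96, 7.67, 7.65 and 7.36 in CBA mice, without overlap. The difference was -0.87 (SE 0.15, adjusted p = 0.00770), and -0.75 (SE 0.12, adjusted p = 0.00361) on the other. Both calls held when any 1 mouse was left out. The brighter carries the suffix _x_at, given where probes may bind other transcripts, while the other (_a_at) matches transcripts of 1 gene only.

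Xbp1, whose mRNA is spliced by IRE1 into the form that encodes the active factor, had the brightest probeset of the set. It gave 11.71, 11.81, 11.62, 11.71 and 11.77 in QSi5 mice and 11.80, 11.84, 12.04, 11.41 and 11.76 in CBA mice. The difference was -0.04 (SE 0.12, adjusted p = 0.905), and the remaining 3 probesets showed -0.04, -0.03 and 0.17. The spliced form was not told apart from the unspliced form here. Atf4, the factor translated when PERK is active, had 9.27, 8.04, 9.06, 9.20 and 9.15 in QSi5 mice and 9.26, 8.82, 9.26, 9.49 and 9.52 in CBA mice. QSi5 mouse 2 stood apart, below every other mouse of both strains. The Atf4 difference was -0.33 (SE 0.23, adjusted p = 0.559), beside -0.60 (adjusted p = 0.325) and 0.01 (adjusted p = 0.973) on its other probesets. Ddit3 (CHOP), the factor linked to cell death under prolonged stress, showed 0.15 (SE 0.13, adjusted p = 0.638). Ppp1r15a (GADD34), which restores translation by removing phosphate from eIF2 alpha, showed 0.12 (SE 0.14, adjusted p = 0.741).

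ER-associated degradation (ERAD) extracts misfolded proteins to the cytosol, and none of its 7 members was called or passed an unadjusted p of 0.05. The differences lay between -0.27 and 0.18 with a median of -0.18, and 6 were below 0. The largest was that of Derl1, a channel component, with 8.36, 7.80, 7.71, 7.90 and 8.21 in QSi5 mice, against 8.08, 8.24, 8.54, 8.05 and 8.41 in CBA mice, which overlapped widely. The Derl1 difference was -0.27 (SE 0.15, adjusted p = 0.441). The ubiquitin ligase Syvn1 (HRD1) showed -0.21 (adjusted p = 0.396), its partner Sel1l -0.11 (adjusted p = 0.721) and Herpud1 -0.19 (adjusted p = 0.667). Derl2 showed -0.18 (adjusted p = 0.668) and Edem1, a mannosidase-like lectin that delivers glycoproteins to this route, -0.07 (adjusted p = 0.874). Os9, a lectin of the same route, had the highest difference of the set at 0.18 (SE 0.13, adjusted p = 0.571).

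Where a gene had several probesets they did not always give the same sign. This applied to 5 of the 16 genes with more than 1 tested probeset, namely Hyou1, Ppib, Xbp1, Atf4 and Sel1l. In all, 50 of the 61 tested probesets were below 0.

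**Figure D3:**
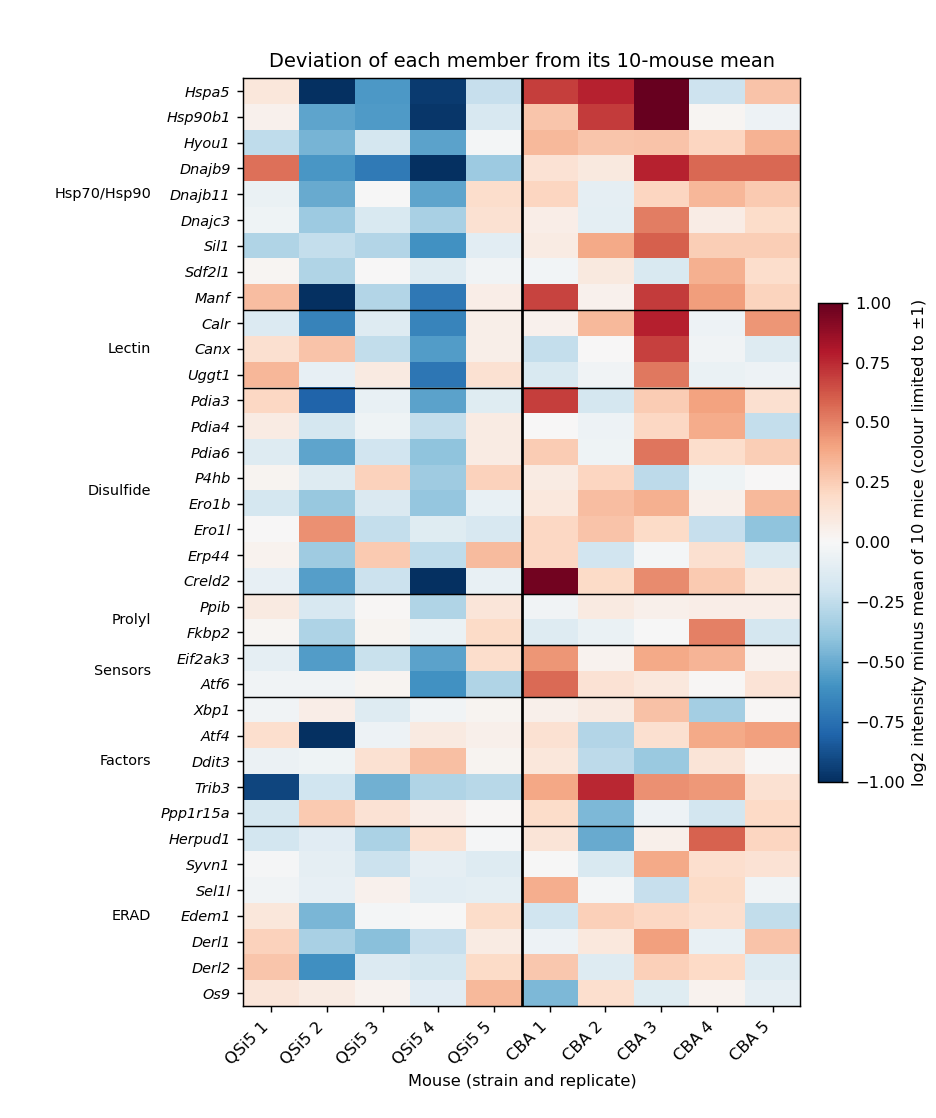
Deviation of the 36 tested members (rows, by role) from their mean over the 10 mice, on the log2 scale with the colour limited to ±1, for QSi5 mice left and CBA mice right of the line. Blue is below and red above the mean, and the darkest columns are QSi5 mice 2 and 4 (blue) and CBA mouse 3 (red).

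Some mice were low or high across many of the members at once. The median deviation of the 36 genes from their 10-mouse means was 0.01, -0.32, -0.13, -0.31 and 0.04 in QSi5 mice 1 to 5, against 0.14, 0.06, 0.27, 0.17 and 0.14 in CBA mice 1 to 5. The QSi5 mice spanned a wider range than the CBA mice, and the strains did not overlap on this measure, with QSi5 mouse 5 and CBA mouse 2 the nearest to each other. Over the 25 members not past an unadjusted p of 0.01 the strains did overlap, at 0.03, -0.16, -0.02, -0.17 and 0.07 in QSi5 mice and 0.08, -0.03, 0.19, 0.16 and 0.01 in CBA mice. These 25 remained after the genes with the smallest p-values in the same arrays were left out, which favours overlap. It therefore does not show how far the difference spreads over the set. QSi5 mouse 4 was the lowest of its strain for 15 of the 36 genes and QSi5 mouse 2 for 13, while QSi5 mouse 5 was the highest for 15. Among CBA mice, mouse 3 was the highest for 14 genes. The same deviation over all 7361 genes lay between -0.03 and 0.02 in both strains. The median SD within strains was 0.26 in QSi5 and 0.23 in CBA mice for the members, against 0.19 and 0.22 for all genes in the same order.

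RNA quality was measured from the array controls. The Gapdh control probesets differed by 1.52 to 1.84 (3′ minus 5′, log2) in QSi5 mice, and by 1.62, 2.28, 3.28, 1.11 and 2.23 in CBA mice 1 to 5. CBA mouse 3, with the highest members of its strain, thus also had the highest 3′ minus 5′ value, and the beta-actin controls gave the same mouse as highest, at 3.998. CBA mouse 4 had the lowest Gapdh value of all mice (1.11) and a median member deviation of 0.17. CBA mouse 2, with a Gapdh value of 2.28, had the lowest median member deviation of its strain (0.06). Without the 3 CBA mice above 2, which left 2 CBA mice, the median member difference was -0.31 and 31 of 36 genes were again below 0. The number called was then 0, with 3 at an unadjusted p of 0.01 and 14 at 0.05, all of them lower. In the same fit 149 probesets were called in all, and 2.21% and 6.14% of all genes passed these unadjusted thresholds in the lower direction. This alternative was added after the data were seen, and chip type was not a term in it. Both remaining CBA mice (1 and 4) were on the MOE430 2.0 chip, whereas QSi5 mice were on both chip types. The part of RNA quality in the difference was not tested.

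Genes of the involuting gland and the acute phase also moved with the strains. Of 14 listed genes 10 were tested, and all 10 were below 0, with a median of -0.73, and 3 were called lower: Timp1 (-0.63, adjusted p = 0.0143), a protease inhibitor, and the serum amyloid genes Saa1 (-4.97, adjusted p = 0.0225) and Saa3 (-3.95, adjusted p = 0.0451). Among all genes 49.1% were below 0 and 1.39% were called lower. Saa1 had 7.80, 6.30, 5.77, 3.44 and 4.28 in QSi5 mice, against 11.56, 11.48, 13.20, 8.11 and 8.08 in CBA mice, with CBA mouse 3 again the highest. The summed unlogged intensity of the list was 4896 to 9366 in QSi5 mice and 7192 to 43656 in CBA mice. Its part in the differences of the chaperones was not tested, nor was that of any interval between weaning and collection.

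**Figure D4:**
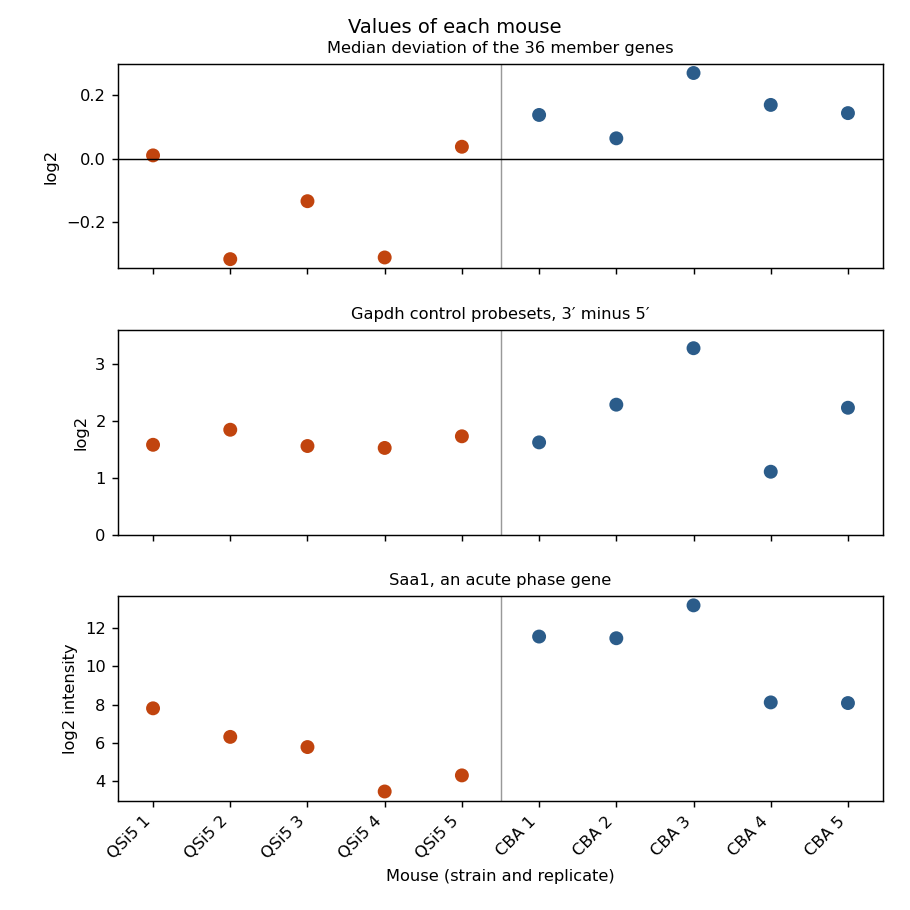
Values of each mouse, QSi5 left and CBA right of the line: the median deviation of the 36 members (log2), the 3′ minus 5′ difference of the Gapdh controls (log2) and the log2 intensity of Saa1. CBA mouse 3 is the highest in all 3 panels (0.27, 3.28 and 13.20), and the QSi5 mice are below all CBA mice in the top and bottom panels. CBA mouse 4 is the lowest of all mice in the middle panel (1.11) and lies at 0.17 in the top panel.

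Of the markers of lactating alveolar cells, all 14 passed the minimum, with 6 below and 8 above 0, a median difference of 0.01 and a summed unlogged intensity of 124674 to 136081 in QSi5 and 123401 to 130277 in CBA mice. Of these, Xdh (0.73, adjusted p = 0.00108) was called higher and Krt8 (-0.83, adjusted p = 0.0161) lower, and 12 were not called. Csn2, the beta-casein, differed by 0.00 (SE 0.09). The share of alveolar cells was not measured. Quantile normalization holds the highest intensities nearly alike across arrays, so the sum of such bright genes cannot measure it. Plasma cells also hold much ER. Of their 9 markers 5 passed the minimum and 0 were called (1 lower and 1 higher at an unadjusted p of 0.01, and no more at 0.05), and their summed intensity was 875 to 1352 in QSi5 and 793 to 1460 in CBA mice. The lower one was Derl3 (-0.58), which is also counted among the degradation genes below, and the other 4 tested markers were above 0. In the lists of adipocytes (7 tested), leukocytes (5), myoepithelial (7) and endothelial cells (4) limma called 0 genes, with 1, 0, 0 and 1 lower and 0 higher at an unadjusted p of 0.01, and no more at 0.05.

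Each chip type held as many QSi5 as CBA mice. The median member difference was -0.24 over the 3 and 3 mice on the MOE430 2.0 chip and -0.26 over the 2 and 2 mice on the MOE430A 2.0 chip, with 29 and 31 of the 36 genes below 0. On the arrays of each chip type alone, 1 (Dnajb9) and 0 members were called, and 0.513% and 0.216% of all genes were called lower, in the same order. Hspa5 showed -0.84 on the MOE430 2.0 and -1.47 on the MOE430A 2.0 chip, and Dnajb9 -1.14 and -0.45 in the same order. CBA mouse 3 was on the MOE430A 2.0 chip. With chip type in the fit 6 members were called, namely Hspa5 and Hsp90b1 beside the 4 above, while the number of probesets called in all was 413, against 336 without it. The share of all genes called lower was 1.77% in this fit, against 1.39% without chip type.

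Other genes of the same pathway were looked at beside the members. Of 17 tested disulfide isomerases and folding enzymes outside the set 10 were below 0 (median -0.06), and of 18 oligosaccharyltransferase and glucosidase genes, which add and trim the sugar chains, 11 were (median -0.07). Of 24 further degradation genes 19 were below 0 (median -0.12), and 4 passed an unadjusted p of 0.01, all lower: Erlin1 (-0.38), Ubxn4 (-0.50), Derl3 (-0.58) and Edem2 (-0.39). Of 30 other stress response genes 11 were below 0 (median 0.05), with Wfs1 (-0.44), an ER membrane protein, at an unadjusted p under 0.01. Limma called 0 genes of these lists at the stricter threshold. At an unadjusted p of 0.05 their counts were 2 lower and 2 higher, 4 and 0, 8 and 1, and 6 and 1 in the order given. Among all genes 8.03% were lower and 6.89% higher at that threshold.

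Chaperones of other compartments and the export machinery of the ER held called genes. Of 39 cytosolic and mitochondrial heat shock chaperones 29 were below 0 (median -0.09), and the chaperonin subunits Cct3 (-1.47, adjusted p = 0.00287) and Cct6a (-0.49, adjusted p = 0.0452) were called lower. Another 5 passed an unadjusted p of 0.01, among them Hspa8 (-0.75, adjusted p = 0.0913), the constitutive cytosolic Hsp70. At an unadjusted p of 0.05, 8 of the 39 were lower and 0 higher. Of 47 translocation and vesicle coat genes 38 were below 0 (median -0.18). Of these 47, 5 were lower at an unadjusted p of 0.01 and 16 at 0.05, with 0 higher. Of all genes 3.31% and 8.03% were lower at these thresholds. The cargo receptor Tmed3 (-0.92, adjusted p = 0.00877) and the signal peptidase subunit Spcs3 (-0.86, adjusted p = 0.0167) were called lower. In each of these lists 2 genes were thus called lower and 0 higher, where 1.39% of all genes were called lower and 1.32% higher.

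Lastly, the differences were set beside the promoter elements printed above. All 9 members with an ERSE were below 0, with a median of -0.47 and a range of -1.09 to -0.12. Of these, 6 passed an unadjusted p of 0.01 (Hspa5, Hsp90b1, Calr, Creld2, Pdia6 and Ero1b) and 1 (Ero1b) was called. Of the 22 tested members whose window held no exact match to the ERSE, 17 were below 0, with a median of -0.10. Of these, 3 passed an unadjusted p of 0.01 (Dnajb9, Eif2ak3 and Trib3) and 1 was called. The 5 members without a window are in neither group: Hyou1 (-0.58), Sil1 (-0.62), Manf (-0.82), Atf6 (-0.38) and Derl1 (-0.27). Hyou1 and Sil1 were called, and whether these 5 genes hold an ERSE is not known here. Over all 5978 tested genes with a window, the median was 0.002 and 195 passed in the lower direction. Only 5 tested genes outside the set held an ERSE: Derl3 (-0.58), Alg12 (-0.19), Ptgdr2 (0.07), Adcy3 (0.18) and Acacb (0.32). They fell on both sides of 0, with Derl3 the 1 past an unadjusted p of 0.01. The 2 members with an ERSE-II, Dnajb11 (-0.37) and Herpud1 (-0.19), did not pass it. These are descriptions of the letters in the windows and of measured intensities, and binding of ATF6 was not measured.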

How the data were processed

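Mammary RNA of 5 QSi5 and 5 CBA mice was hybridised to Affymetrix arrays, 1 per mouse. The deposited values are log2 intensities that the authors made by RMA (affy), with quantile normalization of both chip types together on their 22690 shared probesets. Versions of these tools are not given in the sources used here, and the values were used as deposited. After 64 control probesets were set aside, those with an unlogged mean over 20 in at least 1 strain were kept, as in the methods, and strain was fitted as the only term (lmFit, then eBayes, two-sided) by limma 3.58.1 under R 4.3.3. Benjamini-Hochberg adjustment ran across the 11412 kept probesets, and the looser threshold was an unadjusted p of 0.01. Each gene was taken on its brightest kept probeset.

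Of the probesets, 20380 carried 1 symbol, 691 several, and 1555 are unnamed here. Members and lists were chosen with earlier results of these data known. Named in full were members with a called probeset or one at an unadjusted p under 0.01, the 5 members with the brightest probesets, and the largest difference of each role, with called genes or the smallest p-values of other lists. Intensities of different probesets are not comparable as levels. The fit was tested on simulated data. Precision is limited by the number of arrays. Alternatives concerned the intensity minimum, normalization, probeset suffixes, chip type, a replicate block, variance modelling, the summary of a gene and each mouse left out. Promoter windows came from RefSeq (GRCm38.p6). Columns of other samples numbered 0.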

Additional observations from a re-analysis of the deposited data

Results flagged for a closer look

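In 6 of 74 groups of 5 mice (36 members and the overall level, in each strain), the highest or lowest mouse stood farther from the rest than Dixon's limit for 5 values, where 1 in 20 groups, or 3.7, would do so by chance. Atf4 was 8.0395 in QSi5 mouse 2, with the other QSi5 mice between 9.06 and 9.27. The remaining ones were CBA mice. Canx was 8.3696 (others 7.45 to 7.69) and Uggt1 6.6730 (others 5.99 to 6.11) in CBA mouse 3, which had the highest 3′ minus 5′ value of the Gapdh controls. Dnajb11 was 7.1665 in CBA mouse 2 (others 7.47 to 7.595), Fkbp2 was 8.7085 in CBA mouse 4 (others 8.02 to 8.199), and Atf6 was 6.4438 in CBA mouse 1 (others 5.89 to 6.02). None of these genes was called.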

How the results depend on the processing

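The median member difference was below 0 under every alternative run, from -0.31 to -0.20. Hyou1 reversed when probesets ending in _x_at or _s_at were left out, since its remaining probeset gave 0.0197 (adjusted p = 0.961), and of the 36 members 28 were then below 0 and 3 were called. Of all genes 1.4% were called lower in that fit. The number of members called was 1 (Dnajb9) on the MOE430 2.0 arrays alone and 0 on the MOE430A 2.0 arrays alone, with 6 and 4 at an unadjusted p under 0.01 and 146 and 65 probesets called in all. In the same order, 0.513% and 0.216% of all genes were called lower, and 2.24% and 2.22% passed 0.01 in that direction. Without the 3 CBA mice whose Gapdh 3′ minus 5′ exceeded 2, an alternative added after the data were seen, 0 members were called, 3 passed the looser threshold and 149 probesets were called. Of all genes 0.595% were then called lower and 2.21% passed the looser threshold in that direction. These settings hold fewer mice, and in the last the remaining CBA mice were all on the MOE430 2.0 chip. With 1 mouse left out at a time, 2 to 5 members were called, 6 to 13 passed the looser threshold and 215 to 415 probesets were called. In these fits 0.857% to 1.76% of all genes were called lower, and 2.33% to 3.94% passed the looser threshold in that direction. The fewest members called were without QSi5 mouse 3 or CBA mouse 2 (2 each), the fewest past the looser threshold without QSi5 mouse 2 or 4 (6 each, and 7 without QSi5 mouse 3 or CBA mouse 3), and the fewest probesets without QSi5 mouse 3 (215) or 5 (221). Trib3 was called in 21 of 23 and 19 of 22 alternatives on its probesets, Hyou1 in 19 of 22 that held its called probeset, Sil1 in 17 of 23, Ero1b in 9 of 23 and Hspa5 in 6 of 23. Replicate numbers did not pair the mice: deviations of same-numbered mice correlated at -0.25, 0.29, -0.37, 0.06 and 0.02, and 2 of 10 mice correlated best with their own number. With a replicate block 2 members were called (Hyou1 and Trib3), where 1.1% of all genes were called lower.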
